A study of Mus musculus with 2 samples.

Results

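The stretch described here is the block of mouse chromosome 19 from base 35000001 to base 50000000 (build mm8), which holds Hells, the gene that encodes Lsh. Its members are all 75000 windows of 200 bp in that range, with a window that the deposited lists leave out counted as 0, and the reads aligned there, and these windows make up 75000 of the 12850450 windows of the series. The block held 45196 deposited reads in Lsh_KO and 43701 in WT, spread over 18703 windows with a read in Lsh_KO and 20826 in WT. The other 216200 windows of chromosome 19 served as the comparison. Trimethylation of lysine 4 of histone H3 (H3K4me3) was profiled by chromatin immunoprecipitation and sequencing in mouse embryonic fibroblast (MEF) lines of the genotypes Lsh-/- (Lsh_KO) and Lsh+/+ (WT), with 1 library each. The chromatin of 20000000 cells was cut with micrococcal nuclease (MNase), which leaves mostly single nucleosomes, before precipitation. The sources used here do not say how the Lsh allele was made, from which strain or age of embryo the lines came, or whether a line is 1 clone. The block was chosen by the density of recurrent base mismatches in its Lsh_KO reads, so the mismatch values are a description with no test. With 1 library per line there are no replicates, and the intervals and ratios compare these libraries, not the genotypes.

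H3K4me3 is laid down around the start sites of active and poised genes and is strongest at promoters rich in CpG, where C is followed by G. Lsh belongs to the SNF2 chromatin remodellers, and DNA methylation depends on it. The block also holds the Cyp2c genes of drug and lipid metabolism, which are liver genes, regulators of development such as Hhex, Pax2 and Pitx3, and many housekeeping genes.

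Most of the recurrent mismatches of the Lsh_KO reads in the block were single-base changes at which nearly every Lsh_KO read carried the other base. A site covered by only 2 Lsh_KO reads shows this by rule. A recurrent site was a position where at least 2 distinct reads of 1 library carried the same mismatch base and fewer than 2 reads of the other library did. Distinct reads are those that differ in position or strand, and each read was 25 bases long. The stretches below show the mm8 sequence, rebuilt from the reads and their match codes, and then the same stretch with the base of the Lsh_KO reads, on the plus strand, with the changed base in capitals. They are 3 of the sites of the block with the most Lsh_KO reads, each with the change in every one, and the 2 sites that lie next to the Hells start site. A substitution gives the mm8 base, its position counted from 1 at the start of the chromosome, and the base in the Lsh_KO reads.
G45836061A at Oga, chr19:45836046-45836076, mm8: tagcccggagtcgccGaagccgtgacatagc
G45836061A at Oga, Lsh_KO: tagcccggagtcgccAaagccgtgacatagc
C40641519T at Aldh18a1, chr19:40641504-40641534, mm8: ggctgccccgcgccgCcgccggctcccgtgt
C40641519T at Aldh18a1, Lsh_KO: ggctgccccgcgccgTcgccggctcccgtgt
C47143773G at Atp5md, chr19:47143758-47143788, mm8: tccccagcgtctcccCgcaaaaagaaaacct
C47143773G at Atp5md, Lsh_KO: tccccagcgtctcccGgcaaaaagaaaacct
G38884758C at Noc3l, chr19:38884743-38884773, mm8: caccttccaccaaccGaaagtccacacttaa
G38884758C at Noc3l, Lsh_KO: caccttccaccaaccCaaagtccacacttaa
C38996339T at Hells, chr19:38996324-38996354, mm8: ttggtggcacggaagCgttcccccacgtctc
C38996339T at Hells, Lsh_KO: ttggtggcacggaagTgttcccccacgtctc

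G45836061A, 803 bp downstream of the start of Oga, the enzyme that removes O-GlcNAc from proteins, was carried by 9 of 9 Lsh_KO reads and 0 of 7 WT reads. At Aldh18a1, an enzyme of proline synthesis, 8 of 8 Lsh_KO reads and 0 of 3 WT reads carried C40641519T. Both sites were picked for the change in every Lsh_KO read, and the rule allows fewer than 2 WT reads with it, so this contrast was fixed in part beforehand. Of the 147 Lsh_KO sites of the block, 133 had the changed base in every Lsh_KO read, and 91 were covered by a WT read. C47143773G at Atp5md, a subunit of the ATP synthase, was carried by 8 of 8 Lsh_KO reads, and no WT read covered it. Of the sites with 7 Lsh_KO reads, A38884653G near Noc3l, G43729017C at BC037704 and A45112148C near Sfxn3 were carried by all 7, and by 0 of 1, 0 of 5 and 0 of 8 WT reads. C47143601T at Atp5md was also carried by 7 of 7 Lsh_KO reads and by 0 of 4 WT reads, whereas C38120238T at Cep55 and C47143686A at Atp5md were carried by 6 of 7 Lsh_KO reads and by 0 of 6 and 0 of 1 WT reads. G44347723A, 12 kb from the nearest placed start, stood apart with 2 of 8 Lsh_KO reads and 0 of 4 WT reads.

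Next to Hells, C38996339T lies 205 bp downstream of its start and was carried by 2 of 2 Lsh_KO reads, on both strands, and by 0 of 4 WT reads. On the other side, G38884758C lies 377 bp upstream of the start of Noc3l, a ribosome biogenesis gene, and was carried by 3 of 3 Lsh_KO reads and 0 of 2 WT reads. The first site of the block was T36899138C, 238 bp upstream of Tnks2, with 3 of 3 Lsh_KO reads against 0 of 3 WT reads. The last was T47972715C, 81 bp upstream of Itprip, with 3 of 3 Lsh_KO reads against 0 of 1 WT read.

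The Lsh_KO library had 147 recurrent sites in the block, and the WT library had 13. On the rest of chromosome 19 the counts were 57 for Lsh_KO and 29 for WT. Of the positions of chromosome 19 covered by at least 2 distinct reads, 0.0649% were recurrent sites of Lsh_KO and 0.0165% were sites of WT. Per 100 kb of such positions, the block held 179.7 sites of Lsh_KO and 19.5 of WT, and the rest of the chromosome held 24.5 of Lsh_KO and 15.4 of WT. The WT density was thus similar in both areas, whereas the pooled Lsh_KO density was raised in the block, which is how the block had been picked. The rest of the chromosome was not even in Lsh_KO. Its bins of 1 Mb starting at 17, 31 and 32 Mb held 6, 2 and 7 Lsh_KO sites. These were 320.3, 163.7 and 116.2 per 100 kb. In WT the same bins held 0, 0 and 1 sites. Other bins there, such as those starting at 19 and 20 Mb, held 0 Lsh_KO sites. Only 3 mismatches of chromosome 19 recurred in both libraries, and 0 of these lay in the block.

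The sites did not fill the block. From base 38088830 to base 47972715 lay 144 of the 147 sites, a span of 9.88 Mb that begins 0.907 Mb before the Hells start and ends 8.98 Mb beyond it. The 3 earlier ones were spread over the bins from 36 to 38 Mb, and 0 lay beyond the last one. In bins of 1 Mb, the bin from 38 to 39 Mb, which holds the Hells start, had 26 sites of Lsh_KO and 0 of WT. The bin from 39 to 40 Mb had 0 in either library, but only 251 of its positions had at least 2 Lsh_KO reads. The bins from 44 to 48 Mb had 16, 21, 22 and 22 sites of Lsh_KO against 0, 1, 1 and 1 of WT. Just inside the edges of the block, the bins from 35 to 36 and from 49 to 50 Mb had 0 sites in either library. Only 384 and 120 of their positions had at least 2 Lsh_KO reads, so few sites could be found there. The bin from 48 to 49 Mb, with 585 such positions, also had 0. The bins just outside, from 34 to 35 and from 50 to 51 Mb, had 0 as well, with 4021 and 1785 such positions.

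**Figure D1:**
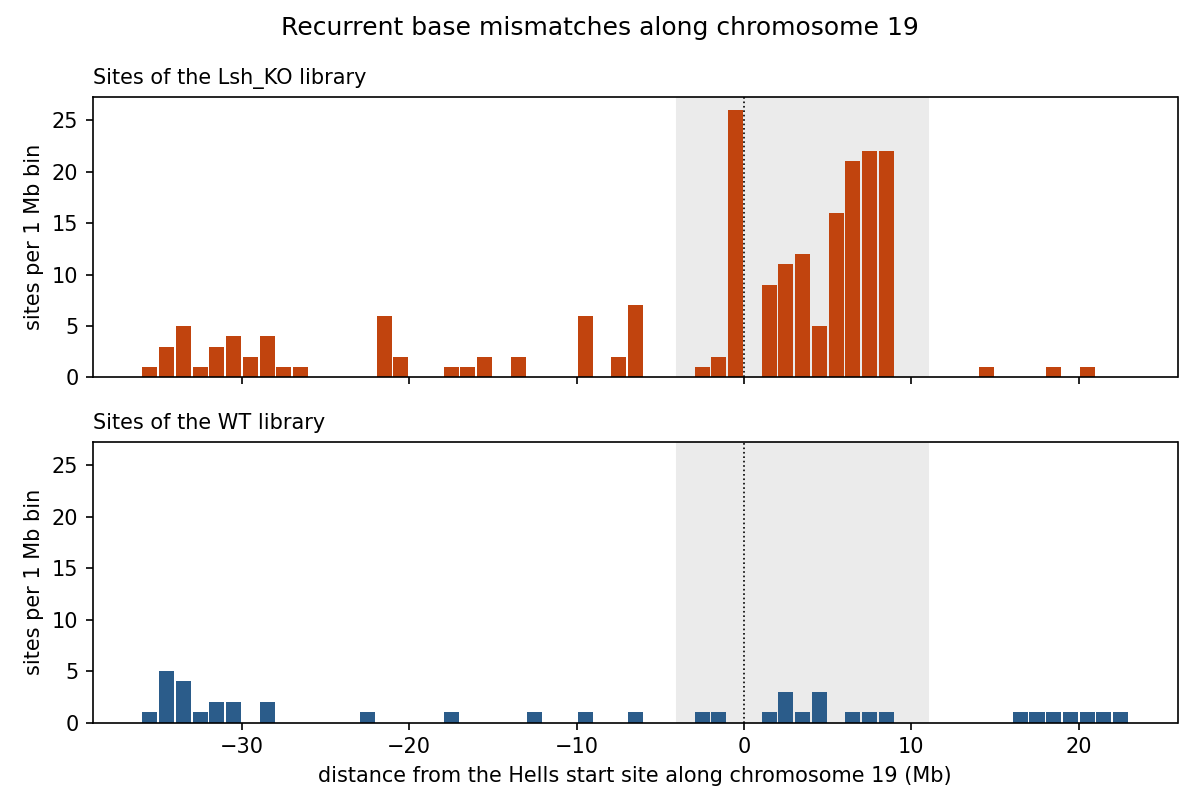
Recurrent mismatch sites per 1 Mb bin of chromosome 19, for the Lsh_KO library above and the WT library below, against the distance in Mb from the Hells start site (dotted line), with the block in grey. The Lsh_KO counts reach 26 in the bin with Hells and 22 near the far end of the dense span, while no WT bin of the block holds more than 3.

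The share of reads with a mismatch of base quality 20 or more needs no repeated coverage, and it was higher for Lsh_KO in the block too. In the block, 8.23% of 27421 distinct Lsh_KO reads carried such a mismatch (95% Clopper-Pearson interval 7.91 to 8.56), against 5.60% of 26182 WT reads (5.32 to 5.88). On the rest of chromosome 19 the shares were 5.53% in Lsh_KO and 5.44% in WT. That pooled Lsh_KO share was not even, so a raised share was not particular to the block. Bins starting at 17, 18, 21 and 22 Mb had 10.9%, 9.01%, 8.24% and 8.66% in Lsh_KO. In WT those bins had 5.18%, 5.44%, 4.98% and 5.44%. Other bins there were not raised, such as the one starting at 19 Mb, at 4.38% in Lsh_KO and 5.47% in WT. With the reads that carried a recurrent mismatch base left out, the block still had 7.0% in Lsh_KO (6.70 to 7.31) and 5.57% in WT (5.29 to 5.85). In the bins just inside the edges the shares were close to the rest of the chromosome, at 5.05% in Lsh_KO and 5.43% in WT from 35 to 36 Mb, and 5.57% in Lsh_KO and 6.23% in WT from 49 to 50 Mb. From 48 to 49 Mb, the bin after the last site, they were 6.88% in Lsh_KO (5.31 to 8.76) and 4.22% in WT (3.03 to 5.71). Just outside, they were 5.51% in Lsh_KO and 5.33% in WT from 34 to 35 Mb, and 4.23% in Lsh_KO and 5.17% in WT from 50 to 51 Mb.

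Within the span of dense sites, the gaps between neighbours had a median of 8.72 kb, and 61 of 143 were under 1 kb. The longest gap ran 1570 kb from the site in Hells to base 40566486 and spans the Cyp2c genes. Its share of reads with a mismatch of quality 20 or more was 6.28% in Lsh_KO (4.79 to 8.07) and 5.26% in WT (4.00 to 6.77). In the next longest, from base 40884961 to 41771516, the shares were 5.88% in Lsh_KO and 6.18% in WT. The gap from base 42832847 to 43534028 had 10.5% in Lsh_KO (8.11 to 13.3) and 4.85% in WT (3.34 to 6.78), and there only 534 positions had at least 2 Lsh_KO reads. A shorter gap, from base 42351877 to 42684501, had 10.4% in Lsh_KO (8.05 to 13.1) and 4.68% in WT (3.05 to 6.83). So some stretches without a recurrent site had a higher share of mismatched reads in the Lsh_KO library, and others, such as the Cyp2c stretch, had similar shares in both.

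Summed over the 147 sites of the block, the mismatch base was read in 427 of 455 Lsh_KO reads, 93.8% (91.2 to 95.9), and in 1 of 251 WT reads, 0.398% (0.0101 to 2.20). The low WT share was fixed in part by the rule, which allowed at most 1 such WT read per site. A site needs 2 such reads to be found, so the share was also taken after 2 were left out per site, which gave 133 of 161 further Lsh_KO reads, 82.6% (75.9 to 88.1). All Lsh_KO reads carried the changed base at 52 of the 66 sites with at least 3 Lsh_KO reads and at 19 of the 26 with at least 5, whereas a site with only 2 reads has to show it in both. At the 57 Lsh_KO sites of the rest of the chromosome, 136 of 241 Lsh_KO reads carried the base, 56.4%, and 22 of 127 further reads, 17.3% (11.2 to 25). That pool mixes unlike sites. Some resembled those of the block, such as T32455277G with 7 of 7 Lsh_KO reads and G32453718A with 4 of 4. Others did not, such as T5912276C with 2 of 10. For the 13 WT sites of the block, 0 of 31 further WT reads carried the base, which allows a share of up to 11.2% by the exact interval. Further reads exist only at sites with at least 3 reads, which were 66 of the 147 Lsh_KO sites and 11 of the 13 WT sites of the block. Over those Lsh_KO sites the changed base recurred in most further reads, and over those WT sites it did not. The sites with only 2 reads cannot show this.

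**Figure D2:**
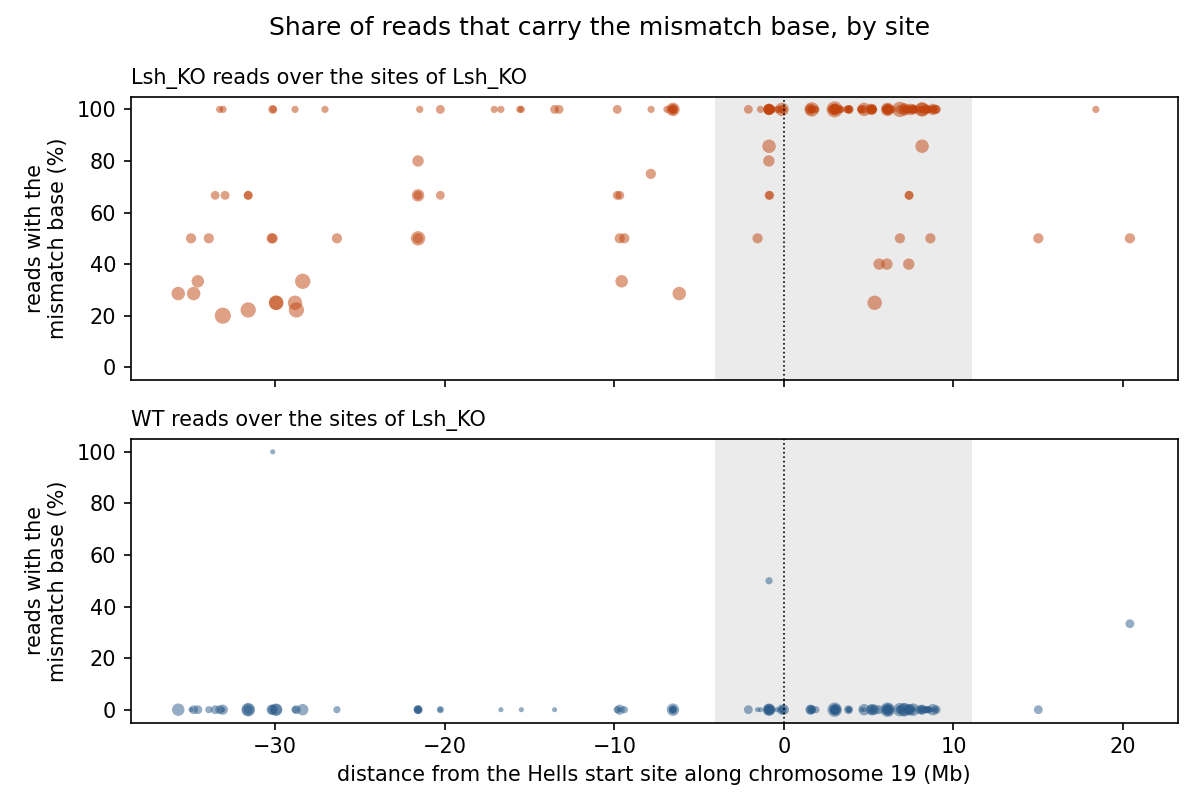
Percent of the distinct reads over each recurrent site of Lsh_KO that carry the mismatch base, for Lsh_KO reads above and WT reads below, against the distance in Mb from the Hells start site, with point area in proportion to the number of reads and the block in grey. In the block the Lsh_KO points gather at 100%, with 133 of 147 sites there, and the WT points at 0. On the rest of the chromosome 23 of 57 Lsh_KO points lie at 100% and the others below it.

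The kinds of change differed too, against a rest of the chromosome that pools unlike Lsh_KO sites. Transitions, which are changes between A and G or between C and T, made up 90 of the 147 Lsh_KO sites of the block, 61.2% (52.8 to 69.1), and 21 of 57 Lsh_KO sites of the rest of the chromosome, 36.8% (24.4 to 50.7). Of the WT sites, 2 of 13 in the block and 4 of 29 elsewhere were transitions. The most frequent change of the WT sites of the rest of the chromosome was A-to-C or T-to-G, with 14 of 29. At 29 of the 147 Lsh_KO sites the mm8 base was part of a CpG. The mean base quality of the mismatch base, on the scale of the deposited quality characters, had a median of 28.3 over the Lsh_KO sites of the block and 25 over those elsewhere, against 15.5 over the WT sites of the block and 13 over those elsewhere.

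The sites lay where the libraries had reads. Of the 147, 123 were in 2 kb windows marked in at least 1 library and 94 were within 1 kb of a placed start site. They touched 53 genes. Myof, a membrane repair protein, had 8 sites within 1 kb of a start, the most of any gene, with 26 Lsh_KO reads over them. Cep55, which acts in the last step of cell division, had 6, and Kazald1 and its divergent partner Gm35782 shared 6. In all, 425 Lsh_KO reads carried 1 recurrent base and 1 read carried 2 or more.

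Marking of the block was judged on the same reads. Distinct reads were moved 75 bp in reading direction and counted in 2 kb windows, and a window counted as marked where it held 10 reads or more and 5 or more times the background of its library, a mean of 1.36 reads per window in both. By this rule 277 of the 7500 windows of the block were marked in Lsh_KO, 3.69%, and 283 in WT, 3.77%, with 207 marked in both. The rest of chromosome 19 had 678 of 21620 windows marked in Lsh_KO, 3.14%, and 742 in WT, 3.43%. Regions joined from 200 bp windows gave a similar count, 119 in Lsh_KO and 116 in WT, of which 109 in each library overlapped a region of the other. The bins from 35 to 36 and from 49 to 50 Mb held 0 marked windows in either library.

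Reads in marked windows took a larger share of the Lsh_KO library. In the block they were 45.6% of Lsh_KO reads and 37.1% of WT reads, and on the rest of the chromosome 47.6% of Lsh_KO reads and 39.7% of WT reads. With no input or spike-in, a stronger mark and a more efficient precipitation cannot be told apart, and neither can more marked cells and more mark per cell. Ratios of Lsh_KO to WT were therefore divided by 1.42, the median ratio over the 18150 windows of the genome marked in both. On this scale the median log2 ratio of the block was -0.13, with quartiles of -0.51 and 0.13, and that of the rest of chromosome 19 was -0.12. With the ratio scaled by total distinct reads instead, both turned positive, at 0.20 in the block and 0.21 elsewhere on the chromosome.

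A call of higher or lower needed a scaled ratio 2-fold or more from 1, an exact 95% interval without 1 in it and 20 or more reads in both libraries together. In the block 245 windows could be called, and 7 were higher and 16 lower in Lsh_KO, together 9.39%. Over all chromosomes 3.45% of such windows were higher and 5.80% lower, and on the rest of chromosome 19 the counts were 11 higher and 45 lower of 628. The block shares, 2.86% higher (1.16 to 5.80) and 6.53% lower (3.78 to 10.4), lie near these backgrounds. The span with dense sites had a median log2 ratio of -0.13, and the remainder of the block -0.18.

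Between the marked windows, the block had fewer Lsh_KO reads per WT read than the genome as a whole. Where both libraries stayed below 10 reads in a window, its log2 ratio was -0.14 (-0.18 to -0.11) relative to all chromosomes, and that of the rest of chromosome 19 was -0.09 (-0.11 to -0.07). Of the 15 bins of the block 13 lay below 0, against 27 of 44 elsewhere on the chromosome. The span with dense sites was at -0.13 and the remainder of the block at -0.18, so both were below 0. With reads without a mismatch alone, the block was at -0.20 and the rest of the chromosome at -0.10.

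Genes were named by promoter. RefSeq promoter sequences of build GRCm38.p6, from 250 bases before to 50 after the start, were found in the reads by exact match on the same chromosome, which placed 173 genes in the block of 224 between its outermost placed promoters. The H3K4me3 promoter peak of a deleted gene need not be lost, and the sources used here do not say which part of Lsh was deleted, so these reads do not check the genotype labels. Of 6 fibroblast markers outside the block 4 were placed, and all 4 were marked in both lines. Vim had 201 reads in Lsh_KO and 126 in WT within 1 kb of its start, Twist1 68 in Lsh_KO and 54 in WT, and Prrx1 79 in Lsh_KO and 33 in WT. Col1a2 was marked with 14 reads in Lsh_KO and 48 in WT, so this marker was lower in Lsh_KO, at 0.21 of WT (0.10 to 0.38). Of the markers of other cells, Alb had 3 reads in Lsh_KO and 1 in WT, Sox2 had 3 in each, and Epcam was marked in both, with 16 reads in Lsh_KO and 13 in WT.

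The Hells promoter was marked in both lines. It had 116 distinct reads in Lsh_KO and 84 in WT within 1 kb of the start at base 38996134, a scaled ratio of 0.97 (0.73 to 1.30), and in the deposited 200 bp windows 223 reads in Lsh_KO and 171 in WT. On the gene side, from the start to 1 kb downstream, it had 77 reads in Lsh_KO and 60 in WT, and on the upstream side 39 in Lsh_KO and 24 in WT. The placed neighbours were Tbc1d12, a protein with a Rab GTPase-activating domain, with 55 reads in Lsh_KO and 44 in WT, and the cytochrome P450 gene Cyp2c55, with 2 in Lsh_KO and 1 in WT. The Hells promoter holds 34 CpG in its 300 bases, against a median of 7 over all 32851 RefSeq promoters, of which 94.6% hold at least 1 CG, and is shown, with CG in capitals, because it carried the mark in both lines (plus strand, RefSeq, GRCm38.p6).
Hells promoter: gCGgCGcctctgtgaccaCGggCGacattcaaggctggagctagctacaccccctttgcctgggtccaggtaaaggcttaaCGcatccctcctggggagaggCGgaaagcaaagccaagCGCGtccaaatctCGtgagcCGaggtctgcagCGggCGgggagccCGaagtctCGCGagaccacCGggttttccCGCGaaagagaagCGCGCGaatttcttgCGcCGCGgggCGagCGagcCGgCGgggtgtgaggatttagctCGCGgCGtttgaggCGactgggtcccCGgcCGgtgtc

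Inside Hells, a further stretch was marked in the Lsh_KO library alone, and its edges were set after its windows were seen. From base 39012201 to 39013800, which is 16.1 to 17.7 kb downstream of the start in a gene that spans 40209 bp in GRCm38, the Lsh_KO library had 28 distinct reads and the WT library 0. This was 25.7 times the Lsh_KO background, and 6.57-fold higher than a floor of 3 WT reads, with an exact lower limit of 5.0-fold for 28 against 0. The deposited windows gave 47 reads in Lsh_KO and 0 in WT, 11-fold higher than the same floor, with an exact lower limit of 8.62-fold. Of these, 19 in Lsh_KO and 0 in WT were beyond the distinct reads. With repeats, the read lists held 36 reads there for Lsh_KO and 0 for WT, so some of the 19 can be repeats. The Lsh_KO reads lay on both strands, 10 forward and 18 reverse, and 23 of the 28 matched mm8 without a mismatch, with a median alignment score of 52. Over all chromosomes, 6 windows of 2 kb had at least 28 Lsh_KO reads and 0 WT reads, and in the block the next highest count beside 0 WT reads was 10. The longest runs covered by Lsh_KO reads of this stretch hold few CG and are shown as mm8 sequence on the plus strand. They hold 4 and 6 of the 28 reads, and the other reads lie in shorter runs.
Run of 4 reads, chr19:39013114-39013187: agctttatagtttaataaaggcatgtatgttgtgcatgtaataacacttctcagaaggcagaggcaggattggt
Run of 6 reads, chr19:39012791-39012841: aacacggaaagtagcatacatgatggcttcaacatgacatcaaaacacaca

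The reads around this stretch were few. From 10 kb downstream of the Hells start to its edge, each library had 3 reads, and no Lsh_KO read of the read list fell between bases 39009757 and 39012279, where WT had 1. The deposited windows add 2 Lsh_KO reads there, from base 39009801 to 39010000, where WT had 0. From its end to 40 kb downstream, Lsh_KO had 37 reads and WT 47, a scaled ratio of 0.55 (0.35 to 0.87). That scale was set on marked windows and lowers the ratio of background reads. Over all chromosomes, background reads numbered 1712390 in Lsh_KO and 1710968 in WT, so unchanged background also falls below 1 on it. The ratio of 0.55 therefore does not show a loss here. In the read lists, the longest runs without an Lsh_KO read in the gene were 2829 bp, 5.49 to 8.32 kb downstream, with 2 WT reads inside, and 2523 bp, with 1, which at this depth does not show a difference.

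**Figure D3:**
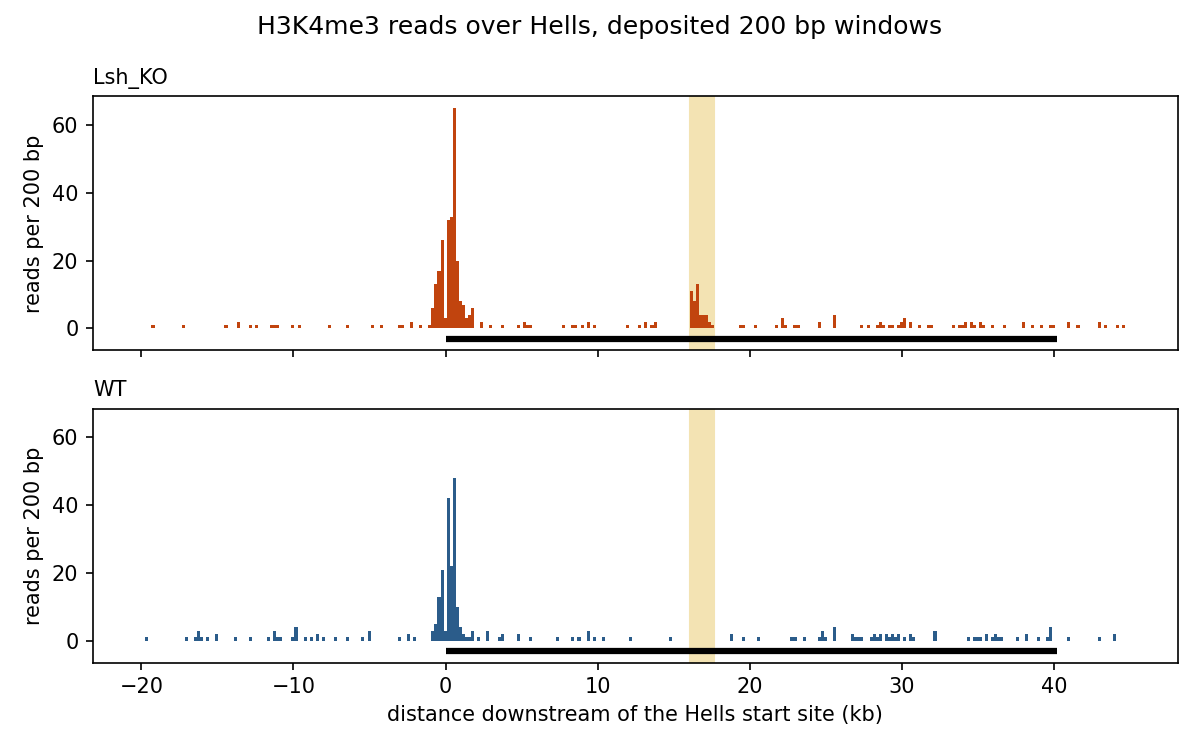
Deposited reads per 200 bp window against the distance in kb downstream of the Hells start site, Lsh_KO above and WT below; the black bar marks the length of Hells and the shaded band the stretch from 16.1 to 17.7 kb. Both libraries peak at the promoter, and in the band Lsh_KO has 47 reads with up to 13 in a window while WT has 0.

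Among the placed promoters of the block, 124 had at least 20 reads in both libraries together, and 2 were higher and 7 lower in Lsh_KO. Over all chromosomes 2.09% of such promoters were higher and 3.53% lower. The CpG-rich promoters of the block were marked in 92.2% of 103 genes in Lsh_KO and 94.2% in WT, and the others in 37.1% of 70 genes in Lsh_KO and 38.6% in WT. The 10 with the most reads included the promoters of Zdhhc16, a palmitoyltransferase, with 183 reads in Lsh_KO and 140 in WT, and of the mitotic kinesin Kif11, with 170 in Lsh_KO and 136 in WT. Over all 10 the reads ran from 141 to 186 in Lsh_KO and from 108 to 146 in WT. Their scaled ratios ran from 0.88 at Kif11 to 1.08 at Atp5md, with 1 inside each interval. Divergent pairs among them share a start region and so share reads, namely Zdhhc16 with Exosc1, BC037704 with Slc25a28, and Atp5md with Pdcd11.

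The higher promoters were Rbp4, the carrier of retinol in plasma, and Ffar4, a receptor for long-chain fatty acids. Rbp4 had 56 reads in Lsh_KO and 8 in WT, a scaled ratio of 4.93 (2.34 to 12), and was marked in Lsh_KO alone. Ffar4 had 68 reads in Lsh_KO and 14 in WT, 3.42 (1.90 to 6.58). They are close neighbours, at -806.2 and -833.9 kb from the Hells start (negative is towards the start of the chromosome), and both lie in the span with dense mismatch sites. So do 106 of the 124 promoters of the block with enough reads for a call. The next highest were not called, namely Cnnm2, linked to magnesium transport, with 99 reads in Lsh_KO and 43 in WT, the mitochondrial carrier Sfxn3, with 123 in Lsh_KO and 61 in WT, and Myof, with 109 in Lsh_KO and 54 in WT. In the deposited windows Rbp4 had 104 reads in Lsh_KO and 23 in WT, and Ffar4 116 in Lsh_KO and 19 in WT.

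The lowest was Plce1, a phospholipase C, with 7 reads in Lsh_KO and 26 in WT, a scaled ratio of 0.19 (0.07 to 0.45). This value is for the placed start at base 38589341 alone. Upstream of it, both libraries had a region from base 38546201, with Plce1 as the nearest placed gene. That region held 139 deposited reads in Lsh_KO and 82 in WT. Tll2, a metalloprotease of the tolloid family, had 6 reads in Lsh_KO and 20 in WT, 0.21 (0.07 to 0.55), and Loxl4, a lysyl oxidase that cross-links matrix proteins, had 6 in Lsh_KO and 14 in WT, 0.30 (0.09 to 0.84). These promoters and Gm20467, with 7 reads in Lsh_KO and 19 in WT, were marked in WT alone. Cyp26a1, which breaks down retinoic acid, had 15 reads in Lsh_KO and 31 in WT, 0.34 (0.17 to 0.65), and the partner Gm32342 shares most of these reads. The channel gene Calhm2 had 36 in Lsh_KO and 53 in WT, 0.48 (0.30 to 0.74). With scaling by total reads Calhm2 was at 0.60 (0.38 to 0.94) and Loxl4 at 0.38 (0.12 to 1.05), and both lost the call. Of the 7 lower promoters, 5 lie in the span with dense sites, and Cyp26a1 and Gm32342 lie before it. The span holds 106 of the promoters with enough reads, so 5 of 106 were lower there, against 2 of 18 in the rest of the block.

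**Figure D4:**
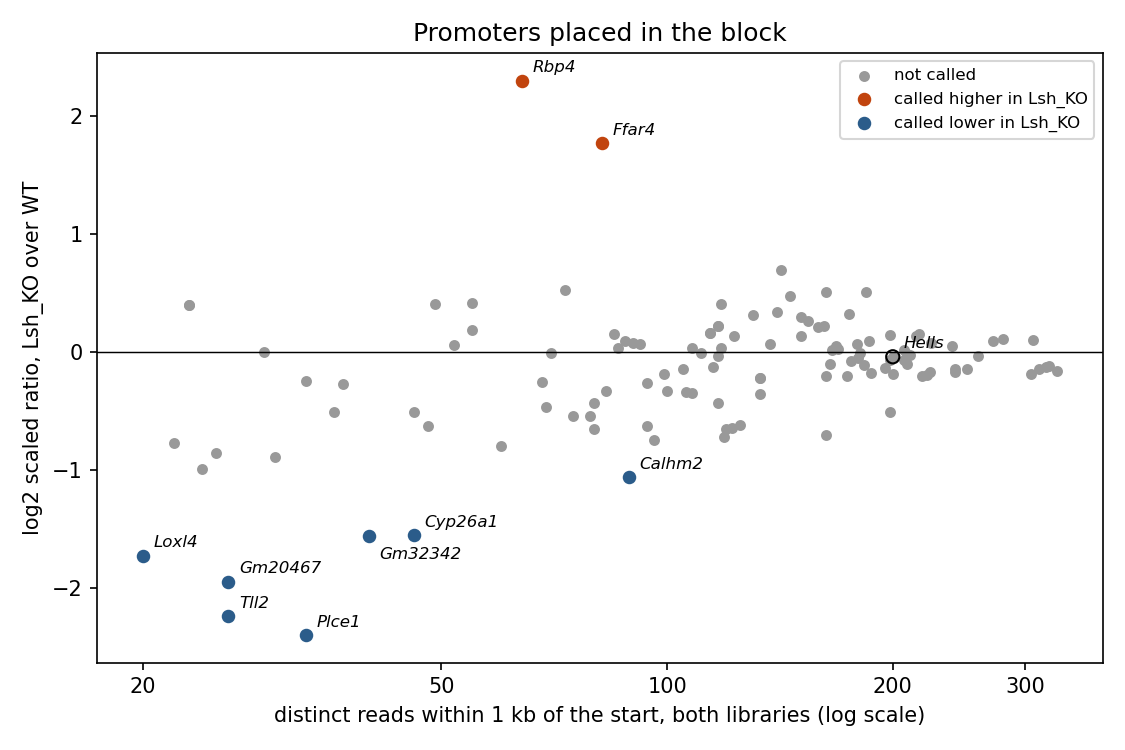
Log2 scaled ratio of Lsh_KO over WT against the distinct reads of both libraries together (log axis) for the 124 placed promoters of the block with at least 20 reads; each point is 1 gene, coloured by its call. Rbp4 and Ffar4 stand above the others, 7 promoters lie below -1, and Hells (open circle) lies at -0.04.

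The called promoters were of varied composition. Of the higher ones, Rbp4 holds 40 CpG in 300 bases with a GC content of 72.0%, and Ffar4 holds 19 with 63.7%. Of the lower ones, Plce1 holds 8 with 41.0%, Tll2 holds 20 with 65.7%, and Cyp26a1 holds 26 with 62.3%. The promoters of Rbp4 and Plce1, which had the highest and the lowest ratio, and of Cyp26a1, the retinoic acid enzyme, are given on the strand of each gene, from RefSeq (GRCm38.p6), with CG in capitals.
Rbp4 promoter: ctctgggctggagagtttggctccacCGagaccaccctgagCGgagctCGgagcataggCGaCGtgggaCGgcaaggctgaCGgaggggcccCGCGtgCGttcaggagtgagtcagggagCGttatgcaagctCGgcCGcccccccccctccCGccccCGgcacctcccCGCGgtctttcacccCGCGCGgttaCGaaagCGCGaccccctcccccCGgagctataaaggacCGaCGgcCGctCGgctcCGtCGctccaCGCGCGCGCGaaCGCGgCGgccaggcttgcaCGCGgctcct
Cyp26a1 promoter: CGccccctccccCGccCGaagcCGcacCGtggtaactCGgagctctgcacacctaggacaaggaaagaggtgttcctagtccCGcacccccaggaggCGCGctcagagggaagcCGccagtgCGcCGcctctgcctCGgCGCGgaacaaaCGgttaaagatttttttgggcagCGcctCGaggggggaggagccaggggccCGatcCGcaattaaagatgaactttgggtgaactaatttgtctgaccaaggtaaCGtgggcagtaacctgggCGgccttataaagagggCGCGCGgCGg
Plce1 promoter: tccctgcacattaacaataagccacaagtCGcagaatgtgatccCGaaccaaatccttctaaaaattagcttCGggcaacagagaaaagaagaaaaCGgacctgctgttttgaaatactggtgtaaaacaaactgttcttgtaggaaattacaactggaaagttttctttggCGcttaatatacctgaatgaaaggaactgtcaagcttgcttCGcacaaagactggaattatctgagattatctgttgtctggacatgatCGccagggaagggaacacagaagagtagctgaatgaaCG

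**Figure D5:**
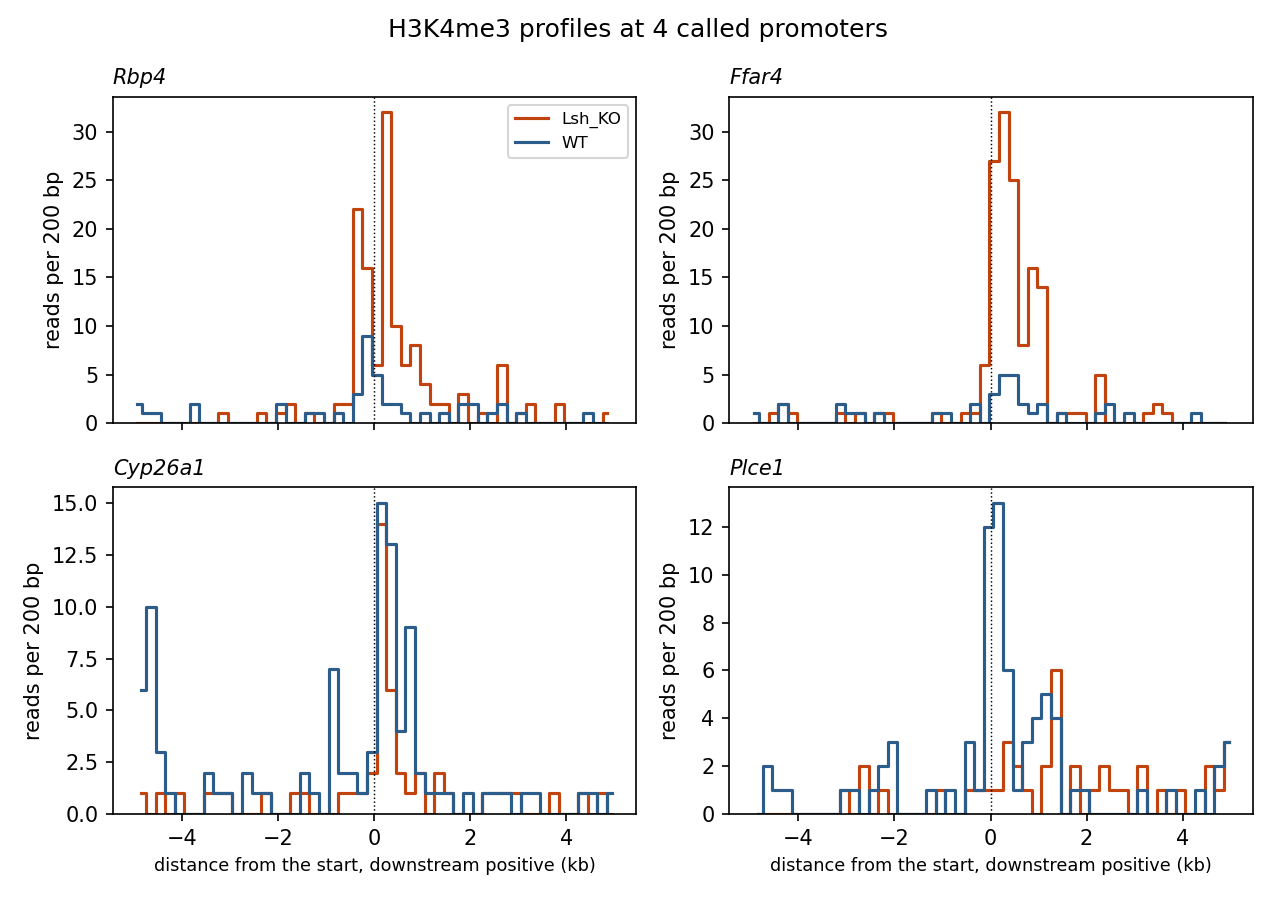
Deposited reads per 200 bp window within 5 kb of the start sites of Rbp4, Ffar4, Cyp26a1 and Plce1, with downstream positions positive and the Lsh_KO counts not divided by 1.42. The highest window of each library, which need not be the same window in both, holds 32 Lsh_KO and 9 WT reads at Rbp4, 32 Lsh_KO and 5 WT reads at Ffar4, 14 Lsh_KO and 15 WT reads at Cyp26a1, and 6 Lsh_KO and 13 WT reads at Plce1.

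Over all 173 placed genes of the block, 121 were marked in Lsh_KO and 124 in WT, and 2 were higher and 7 lower of 124, so a count of 0 in a small group is near the background. Of 12 genes of RNA processing, ribosomes and transcription, 11 were placed and marked in both, and 0 were called. Cpeb3, a translation regulator, had 125 reads in Lsh_KO and 99 in WT, and Pdcd11, which acts in ribosomal RNA processing, had 164 in Lsh_KO and 108 in WT. Of 13 genes of mitochondria and metabolism, 11 were placed, marked in both and not called, such as the mitochondrial DNA helicase Twnk, with 136 reads in Lsh_KO and 106 in WT, and its divergent neighbour Mrpl43, a mitochondrial ribosomal protein, with 135 in Lsh_KO and 107 in WT. The 6 placed genes of cell division and DNA repair, 1 of which, Kif20b, starts just before the block, and the 7 placed ubiquitin ligase and signalling genes were also marked in both and not called. Sufu, an inhibitor of hedgehog signalling, had 97 reads in Lsh_KO and 49 in WT, and Nfkb2, an NF-kappaB subunit, had 131 in Lsh_KO and 84 in WT.

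Of the regulators of development, 5 of 8 placed genes were marked in each line, with 0 higher and 1 lower, Cyp26a1. Hhex, a homeobox factor, had 101 reads in Lsh_KO and 61 in WT, the lens factor Pitx3 had 27 in Lsh_KO and 33 in WT, and the ubiquitin ligase gene Neurl1a had 36 in Lsh_KO and 19 in WT. Of 7 placed fibroblast, matrix and cytoskeleton genes, 5 were marked in Lsh_KO and 7 in WT, and 2 of 7 were lower, Loxl4 and Tll2, against 7 of 124 in the block and 3.53% over all chromosomes. Slk, a kinase of the cytoskeleton, had 122 reads in Lsh_KO and 87 in WT, and the dynactin subunit gene Actr1a had 92 in Lsh_KO and 59 in WT. Of 7 placed liver and steroid genes, Rbp4 alone was marked, in Lsh_KO, and the 5 placed Cyp2c promoters had 0 to 2 reads in Lsh_KO and 1 or 2 in WT. Both placed lymphocyte genes were marked and not called, Entpd1 with 37 reads in Lsh_KO and 38 in WT. Among nerve genes, Ina was marked, with 32 in Lsh_KO and 17 in WT, and Htr7 was marked in WT alone, with 4 in Lsh_KO and 13 in WT, which is under the 20 reads together that a call needs.

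Promoters with and without a recurrent site were also set side by side. A site needs at least 2 Lsh_KO reads at 1 position, so this split depends on the Lsh_KO counts that also enter the ratio, and the groups are not comparable in it. Of the 53 genes with a site within 1 kb, 1 was higher, Ffar4, and 1 lower, Plce1, and their log2 ratios had a median of -0.01 and quartiles at -0.15 and 0.13. Of the 98 genes in the dense span without such a site, 56 had enough reads, of which 1 was higher and 4 were lower, with a median of -0.19. The genes with a site had a median of 107 reads in Lsh_KO and 76 in WT against 15 in Lsh_KO and 16 in WT for those without.

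Called windows were also found beyond the called promoters. Besides those at Rbp4, Ffar4 and Hells, the higher windows were at Pi4k2a, with 35 reads in Lsh_KO and 12 in WT, 3.28 kb from the start of Cnnm1, with 17 in Lsh_KO and 3 in WT, and 49.5 kb from Arl3, with 18 in Lsh_KO and 4 in WT. In the deposited counts the Pi4k2a window had 56 reads in Lsh_KO and 28 in WT. Its scaled ratio there was 1.41 (0.88 to 2.30), short of a call. The windows near Cnnm1 and Arl3 had 3.38 and 2.55. The lower windows included 1 at the called promoter of Calhm2, with 37 in Lsh_KO and 61 in WT, and 1 near Pyroxd2, with 19 in Lsh_KO and 34 in WT. A window at Pitx3 was lower too, with 17 in Lsh_KO and 29 in WT, and so was another, 12.6 kb from it, with 19 in Lsh_KO and 32 in WT. The further reads of the deposited windows, those beyond the distinct reads, come from the same libraries. They can include repeats of the reads that made the calls, so they are no separate check. In these further reads, 6 of 7 higher and 15 of 16 lower windows had a ratio on the same side of 1. Of those with at least 20 further reads, 2 of 4 higher and 4 of 6 lower windows were again at least 2-fold apart.

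Gained windows, marked in Lsh_KO and below 2 times background in WT, numbered 8 in the block of 277 marked in Lsh_KO, and lost windows 5 of 283 marked in WT. Over all chromosomes 3.99% of the windows marked in Lsh_KO were gained and 3.09% of those marked in WT were lost. The stretch inside Hells was the leading gained window. The others had 10 or 11 reads in Lsh_KO and 0 to 2 in WT, for example 33.7 kb from Hps1, with 10 in Lsh_KO and 0 in WT. The leading lost window, 61.6 kb from Gm29595, had 1 read in Lsh_KO and 15 in WT, and the other 4 had 2 in Lsh_KO and 10 or 11 in WT.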

How the data were processed

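The authors deposited, per library, aligned reads with position, strand, bases, quality characters, a match code and an alignment score (4 to 53). They also deposited whole-number counts of reads in 200 bp windows, on mm8 per the submitters' processing notes. The aligner and the rule for the window counts are not given in the sources used here. Per the labels' protocols, 20 cycles of amplification were used and a gel cut kept 200 to 400 bp. The read lists held 3428628 reads for Lsh_KO and 2869399 for WT, of which 2790389 in Lsh_KO and 2471782 in WT were distinct, with 103374 in Lsh_KO and 96367 in WT on chromosome 19.

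A letter in a match code was the mm8 base: at 13946 of 13946 checks it equalled the base of a read without a mismatch at that position. No genome of mm8 was used here. Regions joined 200 bp windows of at least 6 reads across up to 1 kb and needed 20 reads. In all, the window lists contained 4550293 reads for Lsh_KO and 4070117 for WT. Beyond the distinct reads of the read lists, these were 1759904 reads more for Lsh_KO and 1598335 more for WT. Such further reads can include repeats of listed reads, and their origin is not given. A promoter was CpG-rich with a GC content above 50% and an observed-to-expected CpG ratio above 0.6, and for a gene with several placed starts the one with the most reads was used. The span of dense sites was set after the sites were seen, from the first to the last site in bins of 1 Mb with at least 5.

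The block, its gene lists and the rule for the named items were chosen with earlier results of these data known. Named were Hells and its neighbours, the 10 promoters with the most reads, the 5 with the highest and the 5 with the lowest ratio by the interval bound nearest to 1, and the sites with the most reads, 1 of which is not reported here. All intervals are exact (Clopper-Pearson) 95% intervals that cover counting error only, and amplified reads are not independent molecules. On simulated counts for 1285045 windows with 200 changed per size and direction, calls were made for 54.0% of windows raised 2-fold and for 45.0% of windows lowered 2-fold, and at 4-fold for 100% of raised and 78.0% of lowered windows. Analyses used scipy 1.17.1, numpy 2.4.6, matplotlib 3.10.9 and pandas 2.3.3 in Python 3.11.15. Alternatives varied the scaling, repeated reads, read shift, window size, minimum counts, base quality, strand, alignment score and depth.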

Additional observations from a re-analysis of the deposited data

How the results depend on the processing

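No paired analysis was possible because each genotype had 1 library, and no library could be left out. With scaling by total distinct reads 14 windows of the block were higher and 6 lower, and the median log2 ratio turned to 0.20; with scaling on the rest of chromosome 19 that median was -0.0075. Counts from the deposited windows gave 14 higher, 67 lower, and 567 marked windows in Lsh_KO and 638 in WT. With all reads kept 30 were lower, and with Lsh_KO thinned to the WT depth 4 were higher. Windows of 1 kb gave 7 lower, and windows of 5 kb 4 higher and 72 lower. A minimum of 6 reads for a marked window gave 563 marked in Lsh_KO and 605 in WT, and a minimum of 20 reads gave 158 in Lsh_KO and 148 in WT, 4 higher and 8 lower. A minimum of 10 reads together gave 11 higher and 45 lower, and of 40 gave 3 higher and 6 lower. The background ratio was -0.20 with reads without a mismatch. Recurrent sites numbered 55 in Lsh_KO and 0 in WT with at least 3 reads, 54 in Lsh_KO and 0 in WT with a base quality of at least 32, 58 in Lsh_KO and 4 in WT with both strands required, and 0 in both with an alignment score of at least 52, since no read with a mismatch scored above 46. The share of Lsh_KO reads with the mismatch base was 82.6% with 2 reads left out per site and 88.8% at sites with at least 5 reads. Among the values of the named and called promoters under the alternatives, 169 kept their call, 5 lost it, and Cnnm2 became higher, at 2.04, with scaling by total reads. Calhm2 lost its call with both other scalings, at 0.60 by total reads and 0.52 by the rest of chromosome 19. Loxl4 lost its call by total reads, at 0.38, with reads not moved, at 0.32, and with Lsh_KO thinned, at 0.28. Lower promoters of the block thus numbered 5 to 10. The cause of the other shifts was not tested. Promoters with few reads limit what could be called: at 20 reads together only large ratios have an interval without 1.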
